A study of Mus musculus with 4 samples.

Results

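The genes described here are 32 genes of glycolysis and of the response to low oxygen, out of 32245 gene symbols in the count matrices. They were chosen by symbol, with earlier results of these data known. They comprise 2 glucose transporters, 14 glycolytic enzymes, 2 lactate dehydrogenase subunits, 2 lactate transporters, 3 regulators of glycolytic flux, 4 hypoxia factors and oxygen sensors and 5 targets of the hypoxia pathway. All 32 were found, in 33 rows of the matrices, since *Aldoa* had 2 rows that were summed.

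The data were 4 droplet libraries of single cells, digested out of the tibial muscle of C57BL/6 mice that carry *Nse-Bmp4* and were 6 to 8 weeks old, in which a rat neuron-specific enolase promoter drives mouse *Bmp4* and bone forms in muscle after injury. One library was uninjured muscle, and the others were taken after a cardiotoxin injection, on day 1, day 3 or day 7 (written 1, 3 and 7 dpi). All 4 groups carried the transgene, so none was wild type. Each library pooled 3 muscles and no time point had a second library, so differences between times were not tested, no p-value is given, and every interval covers counting error only. After filtering, 10307, 9641, 12605 and 20300 cells were kept from the uninjured, 1 dpi, 3 dpi and 7 dpi libraries, with a median of 8638, 5896, 4338 and 3049 unique molecular identifiers (UMIs) per cell.

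Glycolysis splits glucose into pyruvate, and lactate dehydrogenase turns pyruvate into lactate, which monocarboxylate transporters carry across the cell membrane. When oxygen is low, prolyl hydroxylases stop marking hypoxia-inducible factors for destruction, and the factors then bind short DNA motifs near genes of glucose uptake, glycolysis, mitophagy and vessel growth. In skeletal tissue the pathway is known for its part in cartilage, which has few vessels, and mature muscle fibres and neutrophils rely strongly on glycolysis.

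Levels (CPM) pool a class within a library, as the UMIs of a gene for every 1000000 UMIs of the pool, and are compared within a gene. Cells were gated by markers, and 7929, 3408, 5787 and 9030 cells formed the mesenchymal stem cell (MSC) lineage in the uninjured, 1 dpi, 3 dpi and 7 dpi libraries. Chondrocyte-like cells numbered 12, 1, 0 and 4285, and a class was described in a library only with at least 50 cells. Markers kept out of the gates were detected in their own class throughout, except *Mymk* in muscle and *Gfra3* in Schwann cells at 1 dpi. Across the gated classes *Gapdh*, *Pkm*, *Aldoa* and *Ldha* gave rows of high level throughout, while other members stood out in few classes. Such members were *Slc16a3* and *Slc2a3* in neutrophils, *Ndrg1* and *Ldhb* in Schwann cells, and *Epas1* in endothelial cells, pericytes and smooth muscle cells.

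**Figure D1:**
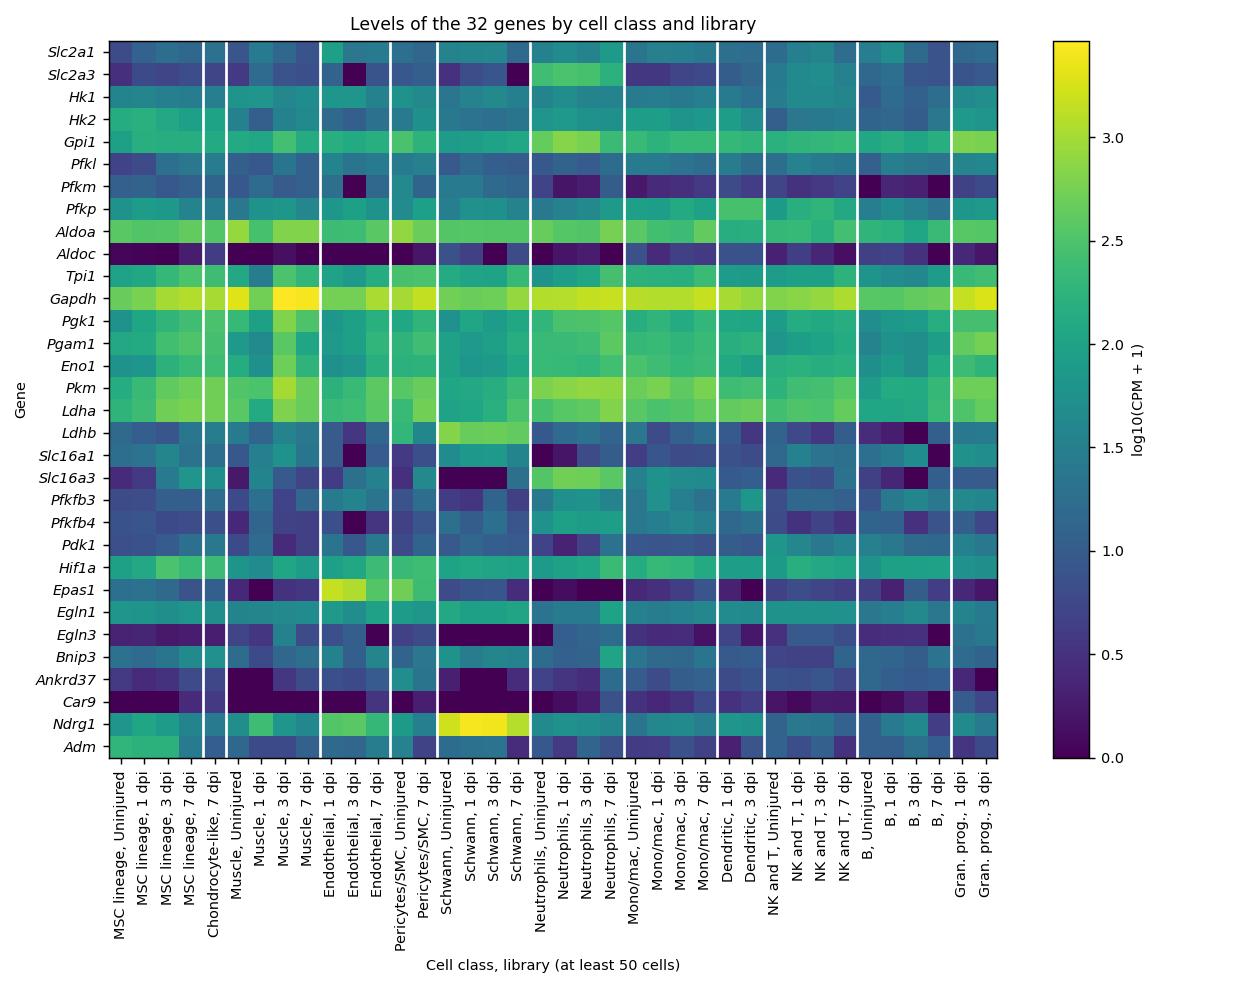
Level of each of the 32 genes (rows) in each cell class and library with at least 50 cells (columns), as log10(CPM + 1), where SMC are smooth muscle cells. *Ndrg1* reached 2591 CPM in Schwann cells at 1 dpi and *Epas1* 1437 CPM in endothelial cells at 1 dpi.

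In MSC lineage cells the summed level of the 32 genes was 2350 CPM in uninjured muscle, 2814 CPM at 1 dpi, 4244 CPM at 3 dpi and 4684 CPM at 7 dpi. The 14 glycolytic enzymes accounted for most of it, at 1658, 2011, 2964 and 3530 CPM in the same order. The 5 hypoxia targets went another way, with 275, 297, 272 and 115 CPM. The sum of 8 genes of dissociation stress, such as *Fos* and *Atf3*, was 25450, 16350, 9224 and 8142 CPM in these cells, and their median depth was 9114, 8059, 5354 and 3268 UMIs. Stress and depth thus moved with time as well, and their part in the levels was not tested.

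Glucose transporters were higher from 1 dpi on. *Slc2a1*, the basal glucose transporter GLUT1, was at 5.12 CPM in uninjured MSC lineage cells, 11.1 CPM at 1 dpi, 16.7 CPM at 3 dpi and 13.5 CPM at 7 dpi. *Slc2a3*, the high-affinity transporter GLUT3, was at 1.93, 4.94, 4.26 and 5.53 CPM. Over the pooled lineage, whose make-up changed as described below, both were lowest in the uninjured library. Neither fell back to its uninjured level there by 7 dpi. From uninjured to 1 dpi *Slc2a3* was 2.57-fold higher (95% interval 2.03 to 3.25) and *Slc2a1* was 2.17-fold higher (1.87 to 2.52).

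The later steps of glycolysis had higher levels at 3 and 7 dpi than in the 2 earlier libraries. *Eno1*, the enolase that makes phosphoenolpyruvate, was at 58.6 CPM in uninjured cells, 65.7 CPM at 1 dpi, 167 CPM at 3 dpi and 221 CPM at 7 dpi. *Pgk1*, phosphoglycerate kinase, was at 59.6, 107, 187 and 249 CPM, and was already higher at 1 dpi. *Pkm*, pyruvate kinase, was at 140, 222, 422 and 505 CPM, and *Tpi1*, triosephosphate isomerase, at 99.9, 117, 203 and 302 CPM. *Gapdh*, the glyceraldehyde phosphate dehydrogenase often taken as a reference gene, was at 451, 594, 990 and 1168 CPM. It was thus no constant over the pooled lineage, whose make-up also changed, as described below. *Pgam1*, phosphoglycerate mutase, had 125, 133, 258 and 321 CPM.

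The upper steps behaved differently from these. *Hk2*, the inducible hexokinase, was at 139, 157, 122 and 89.8 CPM, lowest at 7 dpi, and *Hk1*, the housekeeping hexokinase, was at 35.1, 36.3, 30.6 and 27.9 CPM. *Gpi1*, glucose phosphate isomerase, was at 91.1 CPM in uninjured cells and between 142 and 151 CPM later. *Aldoa*, the main aldolase, had 384, 330, 349 and 435 CPM, a narrow range, and *Aldoc*, the brain aldolase, never exceeded 0.815 CPM.

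The phosphofructokinase subunits shifted in proportion. *Pfkp*, the platelet type, was at 59.2, 81.7, 69.7 and 34.1 CPM, whereas *Pfkl*, the liver type, was at 3.97, 5.26, 17.8 and 22.9 CPM. *Pfkm*, the muscle type, stayed between 7.92 and 11.8 CPM. Of the UMIs of the 3 genes, *Pfkl* held 5.39% (4.80 to 6.02, exact Clopper-Pearson), 5.33% (4.56 to 6.18), 18.6% (17.5 to 19.8) and 33.9% (32.3 to 35.5). The *Pfkp* share was 80.3% in uninjured cells and 50.4% at 7 dpi.

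Among members with 100 UMIs the largest difference between libraries was in lactate export. *Slc16a3*, the monocarboxylate transporter MCT4 that exports lactate from glycolytic cells, was at 1.59 CPM in uninjured cells, 2.94 CPM at 1 dpi, 26.5 CPM at 3 dpi and 63.7 CPM at 7 dpi. *Slc16a1*, the more widely expressed transporter MCT1, was at 16.9, 20.04, 36.2 and 19.2 CPM. *Slc16a3* therefore went from 8.57% (7.13 to 10.2) of the UMIs of the pair in uninjured cells through 12.8% (10.4 to 15.5) and 42.2% (40.5 to 44.0) to 76.8% (75.5 to 78.1) at 7 dpi. *Ldha*, the subunit that favours lactate production, was at 181, 235, 517 and 591 CPM. *Ldhb*, the subunit that favours lactate use, was at 15.02, 9.78, 7.45 and 21.8 CPM and was lowest at 3 dpi.

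The regulators were sparse in MSC lineage cells. *Pdk1*, the kinase that keeps pyruvate out of the mitochondrial cycle, was at 6.01, 6.46, 9.24 and 17.3 CPM. *Pfkfb3*, which makes the activator of phosphofructokinase, was at 5.14, 5.68, 10.1 and 10.3 CPM, and its relative *Pfkfb4* stayed between 4.92 and 7.36 CPM. *Pdk1* was highest at 7 dpi and *Pfkfb3* higher in the 2 later libraries than in the 2 earlier ones.

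**Figure D2:**
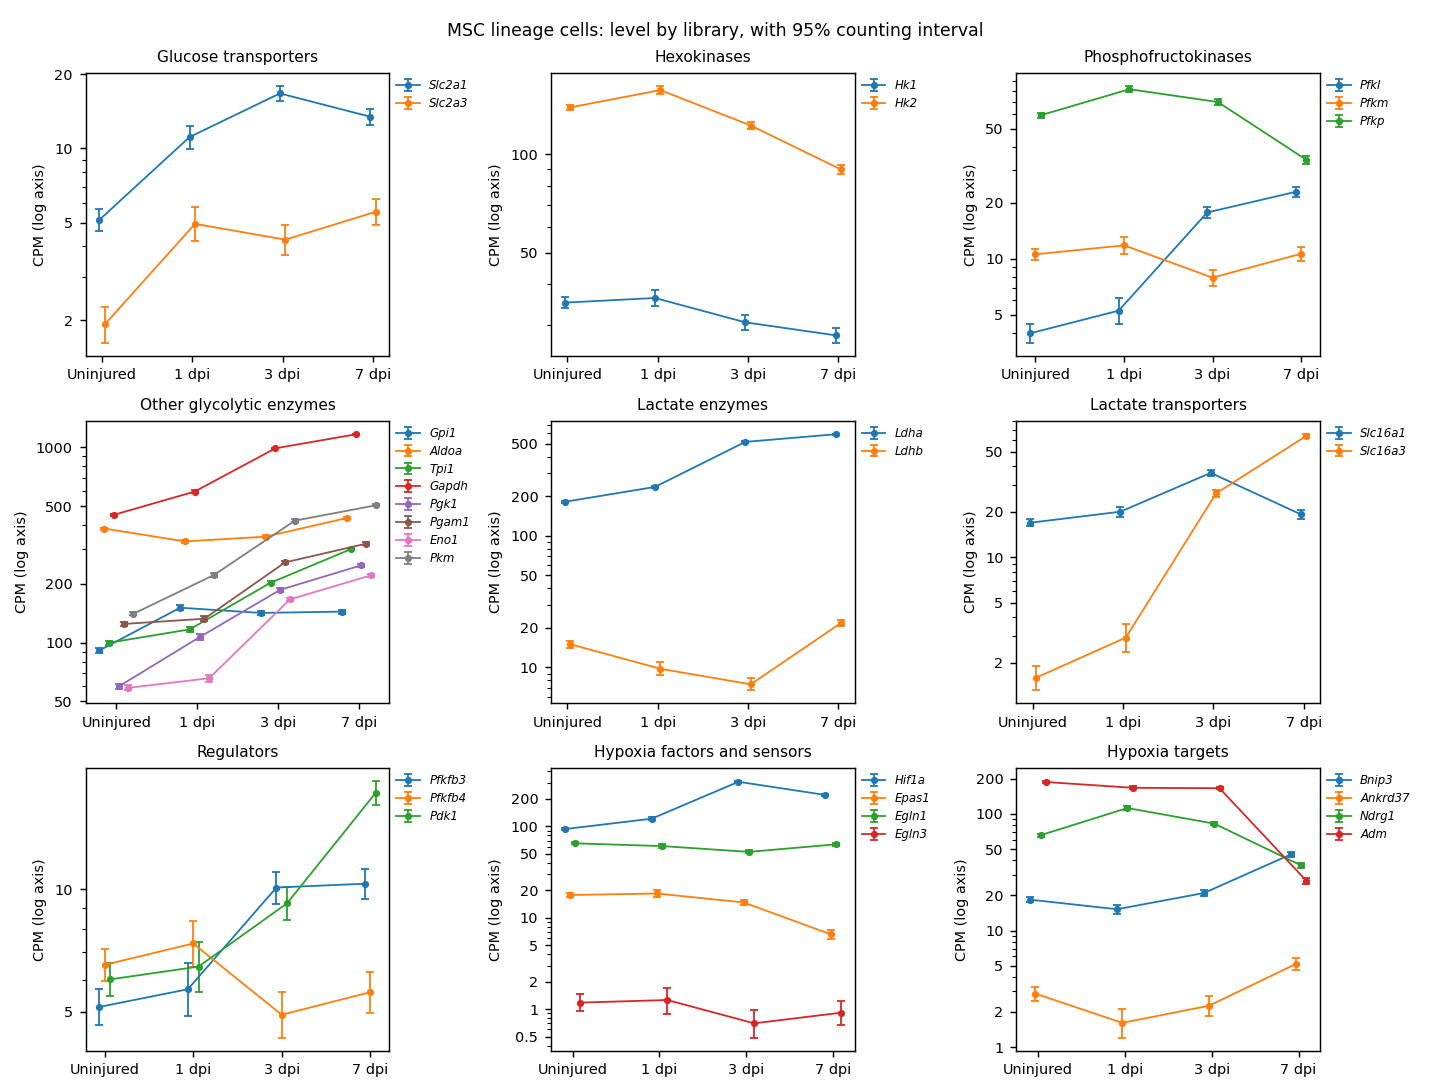
Level of the members except *Aldoc* and *Car9* in MSC lineage cells in CPM on a log axis, by library. Hexokinases, phosphofructokinases and the other glycolytic enzymes have separate panels, and each other role has 1 panel. Points are values and bars 95% Poisson intervals, lines only join libraries, and *Slc16a3* goes from 1.59 to 63.7 CPM while *Adm* goes from 188 to 26.7 CPM.

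Genes of the hypoxia pathway did not follow one course. *Hif1a*, the oxygen-labile factor, was at 93.4 CPM in uninjured MSC lineage cells, 121 CPM at 1 dpi, 308 CPM at 3 dpi and 221 CPM at 7 dpi. *Epas1*, which encodes the related factor HIF-2 alpha, was at 17.7, 18.4, 14.7 and 6.6 CPM. *Egln1*, the main oxygen sensor among the prolyl hydroxylases, stayed between 52.6 and 65.2 CPM, and *Egln3*, an inducible one, did not exceed 1.26 CPM. The level of *Hif1a* mRNA says nothing of the protein, whose stability the sensors control.

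The targets split into a group that was higher and a group that was lower at 7 dpi. *Bnip3*, a mitophagy receptor, was at 18.4, 15.2, 21.0 and 45.0 CPM, and *Ankrd37* was at 2.87, 1.61, 2.26 and 5.17 CPM. *Car9*, the membrane carbonic anhydrase, had 0 UMIs in MSC lineage cells before 7 dpi and 81 UMIs, or 1.61 CPM, at 7 dpi. *Adm*, the vasoactive peptide adrenomedullin, was at 188, 168, 166 and 26.7 CPM, and *Ndrg1*, a stress-responsive gene also known for myelinating Schwann cells, was at 65.8, 113, 82.6 and 36.2 CPM. Both were lowest at 7 dpi over the pooled lineage, whose clusters differed, as described below.

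Counted over the steps between successive libraries, which share their middle libraries, the members stood out from all genes only in part. From uninjured to 1 dpi, 2 of the 30 members with at least 100 UMIs over both libraries were at least 2-fold higher, where 6.15% of all 12603 genes were, and 0 were 2-fold lower, where 3.51% of all genes were. The median log2 ratio was 0.18 for the members and 0.16 for all genes, so neither the count nor the median differed from the background by much. Among members with 100 UMIs in the higher group the next ratios were those of *Pgk1* at 1.79-fold (1.71 to 1.87), *Ndrg1* at 1.71-fold (1.64 to 1.79) and *Gpi1* at 1.66-fold (1.60 to 1.72). *Slc16a3*, with only 91 UMIs at 1 dpi, lay above these at 1.85-fold higher (1.39 to 2.46). The lowest were *Ankrd37* at 1.78-fold lower (1.30 to 2.48), *Ldhb* at 1.54-fold lower (1.35 to 1.75) and *Bnip3* at 1.21-fold lower (1.09 to 1.34), followed by *Aldoa* at 1.17-fold lower (1.14 to 1.19) and *Adm* at 1.12-fold lower (1.09 to 1.16).

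From 1 to 3 dpi, 5 of 29 members were at least 2-fold higher against 4.94% of 12340 genes, and 0 were 2-fold lower against 4.47%. The median log2 ratio was 0.49 for the members and -0.08 for all genes. The 5 were *Slc16a3* at 9.03-fold (7.30 to 11.3), *Pfkl* at 3.37-fold (2.85 to 4.01), *Hif1a* at 2.54-fold (2.45 to 2.63), *Eno1* at 2.54-fold (2.41 to 2.66) and *Ldha* at 2.20-fold (2.14 to 2.26). At the other end were *Pfkfb4* at 1.5-fold lower (1.24 to 1.80), *Pfkm* at 1.49-fold lower (1.29 to 1.73), *Ndrg1* at 1.36-fold lower (1.30 to 1.43), *Ldhb* at 1.31-fold lower (1.12 to 1.53) and *Hk2* at 1.28-fold lower (1.24 to 1.33).

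From 3 to 7 dpi, 4 of 29 members were at least 2-fold higher against 7.78% of 12886 genes, and 4 were 2-fold lower against 6.95%. The median log2 ratio was 0.26 for the members and -0.09 for all genes. The higher ones were *Ldhb* at 2.93-fold (2.60 to 3.30), *Slc16a3* at 2.40-fold (2.25 to 2.57), *Ankrd37* at 2.28-fold (1.82 to 2.88) and *Bnip3* at 2.14-fold (1.99 to 2.31), with *Pdk1* next at 1.87-fold (1.67 to 2.10). The lower ones were *Adm* at 6.23-fold lower (5.88 to 6.61), *Ndrg1* at 2.28-fold lower (2.16 to 2.42), *Epas1* at 2.23-fold lower (1.95 to 2.55) and *Pfkp* at 2.05-fold lower (1.93 to 2.17), with *Slc16a1* next at 1.89-fold lower (1.74 to 2.04).

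**Figure D3:**
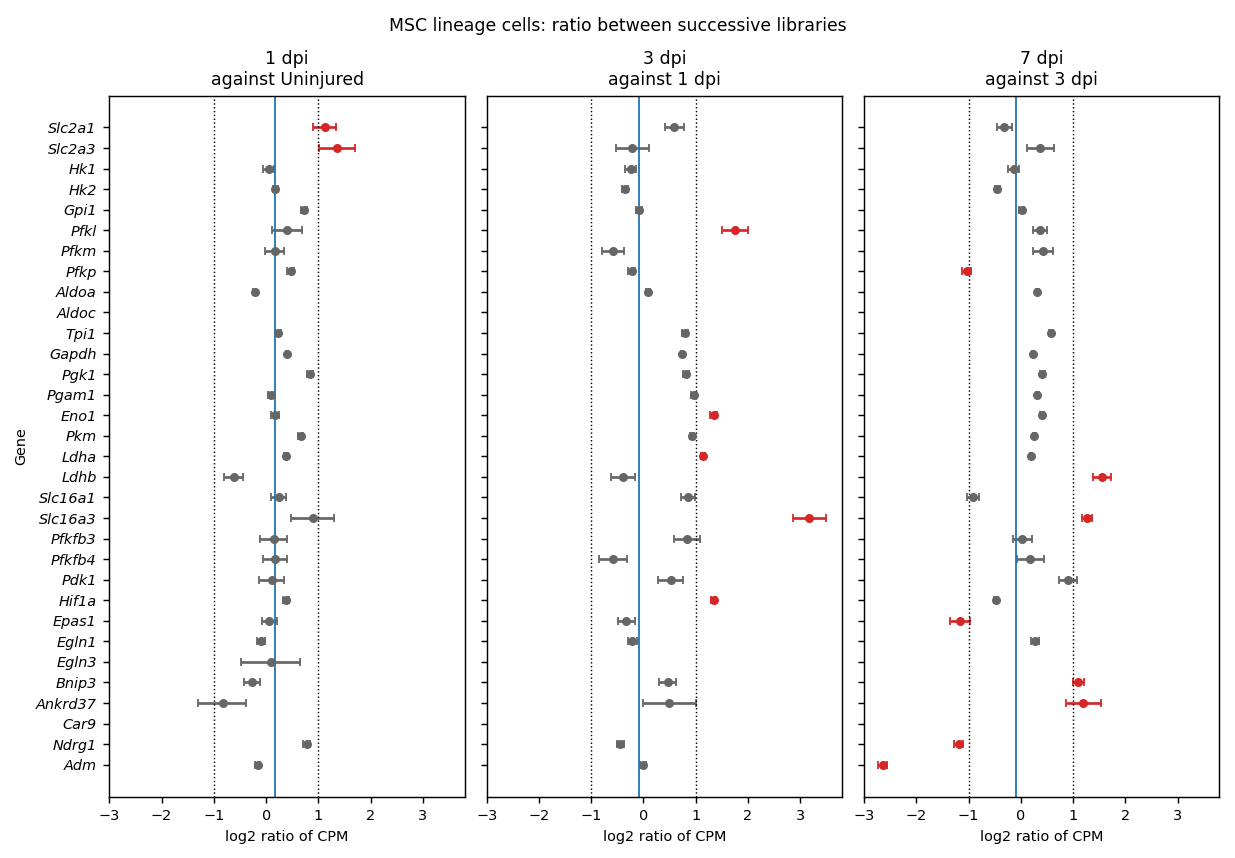
Log2 ratio of CPM between successive libraries in MSC lineage cells for the members with at least 100 UMIs over both, with exact 95% intervals. Dotted lines mark 2-fold, the blue line is the median of all genes, red points are past 2-fold, and 2, 5 and 8 members are past it in the 3 panels.

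Of 47 further genes of glycolysis, pyruvate use and hypoxia, 36, 35 and 37 had enough UMIs in the 3 steps, of which 4, 4 and 4 were at least 2-fold higher, where 6.15%, 4.94% and 7.78% of all genes were, and 2, 2 and 1 were 2-fold lower, where 3.51%, 4.47% and 6.95% were. At 1 dpi *Errfi1*, a feedback inhibitor of growth factor receptors, went from 315 to 873 CPM, *Ddit4*, an inhibitor of mTOR signalling, from 29.96 to 63.1 CPM, *Slc16a7*, the transporter MCT2, from 1.59 to 3.42 CPM, and *Mif*, a cytokine, from 112 to 230 CPM. *Ndufa4l2*, a mitochondrial hypoxia gene, went from 71.6 to 22.0 CPM and *Cox4i2*, a cytochrome oxidase subunit of hypoxic cells, had 111 UMIs and then 7. At 3 dpi *Plod2*, which hydroxylates lysines of collagen and is a hypoxia target, went from 93.0 to 254 CPM and *Pdk3* from 8.00 to 18.4 CPM. *Car12*, another membrane carbonic anhydrase, had 7 UMIs and then 242. The related pyruvate dehydrogenase kinases *Pdk2* and *Pdk4* went from 9.55 to 3.70 CPM and from 9.004 to 3.11 CPM. At 7 dpi *Cox4i2* went from 1.69 to 19.3 CPM, *Ndufa4l2* from 42.4 to 121 CPM and *Mif* from 376 to 888 CPM, while *Errfi1* went from 526 to 95.9 CPM. In these MSC lineage cells 4 chondrocyte markers outside the gate stood at 5.67% of their level in chondrocyte-like cells, where *Cox4i2* was higher. The part of such RNA in the 7 dpi values was not tested. *Pgam2*, the muscle mutase, had 4 UMIs at 3 dpi and 160 at 7 dpi.

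MSC lineage cells changed in make-up between libraries, since most lay in transcriptome (Leiden) clusters 0 and 1 in uninjured muscle (35.8% and 42.6%), cluster 4 was the largest at 3 dpi (35.8%), and clusters 9, 10 and 25 held 16.1%, 44.8% and 21.0% at 7 dpi. Cluster 9 was led by cell cycle genes such as *Ube2c* and *Cenpf*. Against all other cells cluster 10 was led by genes such as *Notum*, *Crabp2*, *Lrrc15* and *Cthrc1*, but against other MSC lineage cells by immune genes such as *Retnla*, *Cd3g*, *Jchain* and *Igkc*. In its 7 dpi cells the 4 mesenchymal check markers summed to 2896 CPM and the NK and T cell ones to 10.02 CPM, against 672 CPM in NK and T cells, while *Igkc*, an antibody light chain, was at 388 CPM there and 387 CPM in cluster 9, and the part of such RNA in the values was not tested. Without cluster 10 the step from 3 to 7 dpi had 7 members past 2-fold instead of 8, since *Bnip3* had a log2 ratio of 0.95, and those of *Slc16a3* and *Adm* were 1.14 and -2.54. Clusters 18 and 26, with 1.74% and 4.29% of the lineage at 7 dpi, had markers of other classes among their leading genes. Without them 8 members were past 2-fold. No share of all genes is given for the counts without these clusters or without cluster 10. The clusters were built from all variable genes of the same cells, so values by cluster are a description. *Slc16a3* was at 1.94, 3.08, 4.58 and 11.5 CPM in cluster 0 over the 4 libraries, at 0.735, 0.620, 1.39 and 9.85 CPM in cluster 7 and at 0.524, 2.92, 2.71 and 4.94 CPM in cluster 3, from 13, 9 and 5 UMIs at 7 dpi. In cluster 1 it was at 0.576, 3.03 and 2.67 CPM and had 0 UMIs at 7 dpi, which allows up to 4.92 CPM. It was at 15.6, 2.25, 24.4 and 20.4 CPM in cluster 4, at 8.04, 64.1 and 99.98 CPM in cluster 9 at the uninjured, 3 dpi and 7 dpi stages, and at 75.7 and 79.6 CPM in cluster 10. Levels at 7 dpi were thus higher than before injury within clusters 0, 3, 4, 7 and 9, with overlapping intervals in cluster 4. Intervals at 3 and 7 dpi, however, overlapped in clusters 0, 3 and 4. The values of cluster 10 are those at 3 and 7 dpi, since clusters 9 and 10 were rare in uninjured muscle. How much of the lineage difference each cluster accounts for was not tested. At 7 dpi clusters 0, 1, 3, 4 and 7 each held at most 2.70% of the lineage.

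Within clusters the steps did not always go the way of the whole lineage. In the 5 clusters with at least 50 MSC lineage cells in every library (0, 1, 3, 4 and 7) *Ldha* and *Hif1a* were higher at 3 dpi than at 1 dpi in 5 of 5. The *Hif1a* intervals of this step overlapped in clusters 3 and 7. From uninjured to 1 dpi, however, *Hif1a* was lower in 5 of 5, with separate intervals only in cluster 4, and *Ldha* in 4 of 5, with separate intervals in clusters 1, 3 and 4, whereas both were higher over the whole lineage. *Gapdh* was lower at 3 dpi than at 1 dpi in 4 of 5, with separate intervals only in cluster 0, and higher over the lineage. *Aldoa* was lower at this step in 5 of 5, with overlapping intervals in clusters 1 and 3, and higher over the lineage. As over the lineage, *Aldoa* was lower at 1 dpi than before injury and higher at 7 dpi than at 3 dpi in 5 of 5. Over the 4 libraries *Gapdh* was at 396, 409, 406 and 447 CPM in cluster 1 and at 455, 447, 443 and 441 CPM in cluster 3. From uninjured to 7 dpi it went from 496 to 729 CPM in cluster 0, 765 to 1065 CPM in cluster 4 and 367 to 487 CPM in cluster 7. *Eno1* was lower at 7 dpi than before injury in clusters 1, 3 and 4 and higher in clusters 0 and 7, with overlapping intervals in each. In cluster 9 *Ldha* had 752 CPM at 3 dpi and 791 CPM at 7 dpi against at most 292 CPM in clusters 0, 1, 3 and 7, and cluster 4 lay between 377 and 675 CPM. *Ndrg1* and *Slc2a3* had higher levels at 1 dpi than before injury in 5 of these 5 clusters, but the *Slc2a3* intervals overlapped in clusters 3, 4 and 7. *Slc2a3* was lower at 3 dpi than at 1 dpi in 5 of 5, with overlapping intervals in each. *Slc2a1* was lower at 7 dpi than before injury in clusters 3 and 4 and higher in clusters 0, 1 and 7, with overlapping intervals in each. *Ndrg1*, *Adm* and *Pfkp* were each lower at 7 dpi than at 3 dpi in 5 of 5, with overlapping intervals in cluster 1 for *Adm* and *Pfkp*. Other members turned at this step. *Hk2*, lower over the lineage, was higher in 4 of 5, with separate intervals in clusters 1, 3 and 4. *Slc16a1*, also lower over the lineage, was higher in 4 of 5 with overlapping intervals, and lower with separate ones in cluster 4. *Bnip3*, higher over the lineage, was lower in 3 of 5, with overlapping intervals in each. *Adm*, lower over the lineage at 1 dpi, was higher then than before injury in 4 of 5, with overlapping intervals in cluster 7. In cluster 1 it was lower. From 1 to 3 dpi it was higher in 4 of 5 and lower in cluster 4. At 7 dpi it was above its uninjured level in clusters 3 and 4 and below it in clusters 0, 1 and 7, with separate intervals only in clusters 4 and 7. *Adm* had 98.4 to 231 CPM in those 5 clusters at 7 dpi and only 5.34 to 21.5 CPM in clusters 9, 10 and 25, which made up most of the lineage then.

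**Figure D4:**
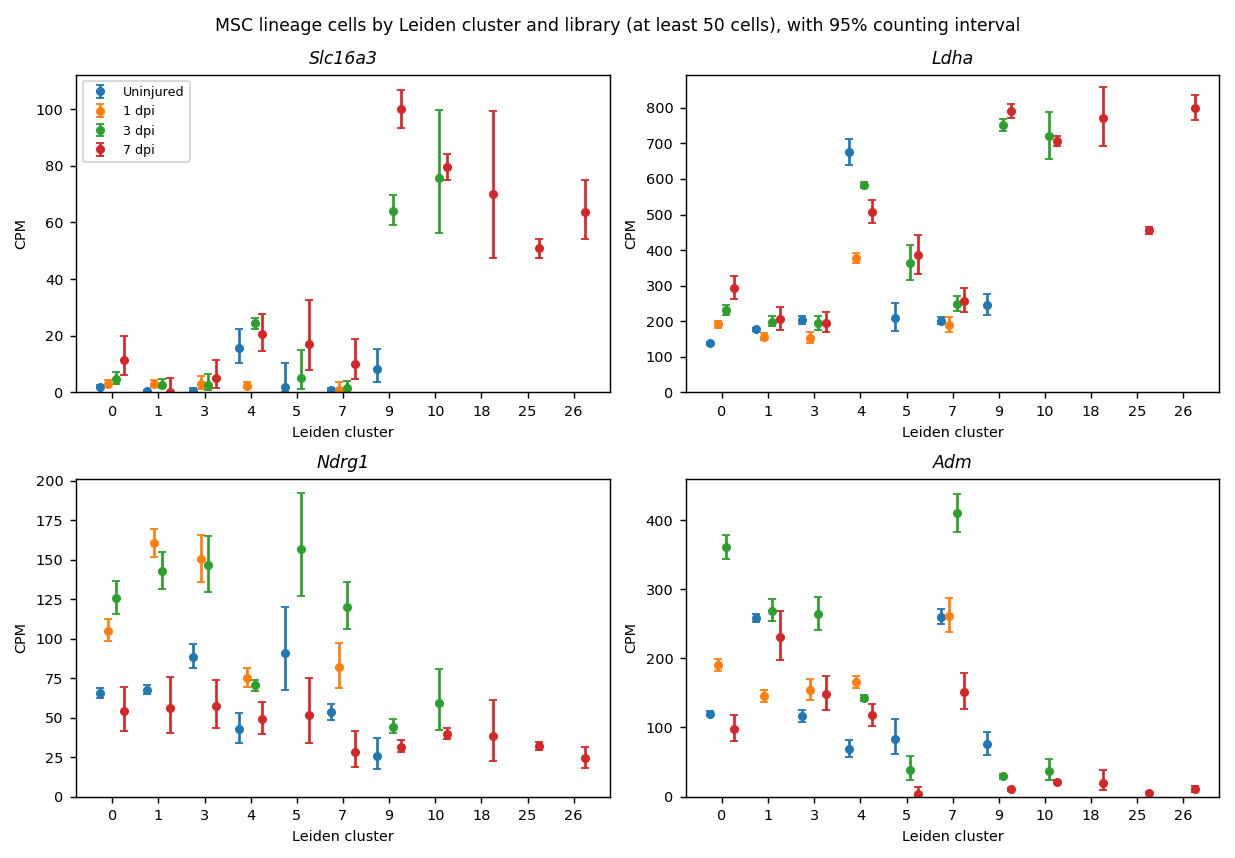
*Slc16a3*, *Ldha*, *Ndrg1* and *Adm* in CPM in MSC lineage cells by Leiden cluster and library with at least 50 cells, with 95% Poisson intervals. *Slc16a3* reached 99.98 CPM in cluster 9 at 7 dpi, and *Adm* was at most 21.5 CPM in clusters 9, 10 and 25 at 7 dpi.

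Neutrophils carried much more *Slc16a3* than any other class, between 345 and 538 CPM, and free RNA of lysed cells can enter any droplet. In MSC lineage cells 4 further neutrophil markers summed to between 0.0186% and 0.0912% of their level in neutrophils of the same library. The part of free RNA, from neutrophils or other cells, in the *Slc16a3* level of MSC lineage cells was not tested.

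The promoters of 29 members could be read from RefSeq (GRCm38.p6), and *Slc2a3*, *Epas1* and *Ndrg1* were not among them. The core of the hypoxia response element, ACGTG or GCGTG on either strand, was present in the 250 bases before the start of 24 of them, or 82.8%, and in 38.6% of the 27018 genes with a promoter. At least 2 matches, overlapping ones on opposite strands included, occurred in 51.7% of the members and 16.8% of all genes. Where a gene had several starts the first in the table was used, and promoters rich in CG hold such letters more often, which was not adjusted for. A match is a description of letters and not a binding site. The windows of *Slc16a3* (chr11:120948817-120949066, + strand), *Ldha* (chr7:46845554-46845803, + strand), *Pgk1* (chrX:106186850-106187099, + strand) and *Adm* (chr7:110627407-110627656, + strand) are given, for the largest increase, a lactate enzyme, a classic target and the largest decrease in MSC lineage cells, 5′ to 3′ with the matches in capitals.
Slc16a3: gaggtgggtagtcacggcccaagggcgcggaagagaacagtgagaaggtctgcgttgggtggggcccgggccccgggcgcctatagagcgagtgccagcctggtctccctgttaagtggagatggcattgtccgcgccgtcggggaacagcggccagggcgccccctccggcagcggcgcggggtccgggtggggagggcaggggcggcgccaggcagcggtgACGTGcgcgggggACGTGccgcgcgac
Ldha: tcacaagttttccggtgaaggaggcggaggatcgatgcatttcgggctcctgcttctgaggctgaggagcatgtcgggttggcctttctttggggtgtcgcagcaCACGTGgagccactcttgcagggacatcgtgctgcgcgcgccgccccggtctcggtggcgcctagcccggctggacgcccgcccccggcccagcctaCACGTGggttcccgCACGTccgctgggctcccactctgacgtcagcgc
Pgk1: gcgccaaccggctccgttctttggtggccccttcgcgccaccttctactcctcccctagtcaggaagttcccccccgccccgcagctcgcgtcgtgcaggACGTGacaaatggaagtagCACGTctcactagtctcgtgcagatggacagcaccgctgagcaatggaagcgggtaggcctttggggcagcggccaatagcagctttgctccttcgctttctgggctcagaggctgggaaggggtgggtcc
Adm: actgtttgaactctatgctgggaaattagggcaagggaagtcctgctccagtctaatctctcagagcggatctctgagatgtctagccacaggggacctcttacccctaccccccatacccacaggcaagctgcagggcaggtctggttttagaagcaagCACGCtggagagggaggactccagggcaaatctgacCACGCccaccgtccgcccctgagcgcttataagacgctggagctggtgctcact

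The *Slc16a3* window held matches whose first bases were 27 and 14 bases before the start, and the *Ldha* window held 5, with overlapping pairs at 145 and 144 and at 48 and 47 bases before it. *Adm* held matches at 90 and 54 bases before its start although its level was lower at 7 dpi, so genes with the motif went in either direction. *Tpi1*, *Gpi1*, *Aldoa*, *Pkm* and *Hk1* held none in this window. Of these windows, however, 208 bases for *Pkm*, 193 for *Aldoa*, 167 for *Gpi1* and 138 for *Tpi1* lay inside annotated exons (GENCODE M21). The RefSeq start used is thus not the only annotated position of transcribed sequence there. The 4 windows printed had 0 to 14 bases in exons. Those of *Slc16a3* and *Ldha* nevertheless lay inside the annotated genes, which start at chr11:120948480 and chr7:46841475.

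At 7 dpi chondrocyte-like cells had levels of these genes close to those of MSC lineage cells of the same library. The summed level was 4373 CPM against 4684 CPM, and the 4285 cells lay mainly in cluster 26 (90.8%). Of 31 members 1 was at least 2-fold higher against 4.50% of 12502 genes and 1 was 2-fold lower against 4.81%, with a median log2 ratio of 0.09 for the members and -0.14 for all genes. *Adm* was at 10.0 CPM in chondrocyte-like cells and 26.7 CPM in MSC lineage cells, 2.67-fold lower (2.29 to 3.12). *Aldoc* was the higher one, from 59 and 41 UMIs, at 3.06 against 0.815 CPM, and had fewer than 100 UMIs once MSC lineage cells of cluster 10, or of clusters 18 and 26, were left out. The next largest ratios were *Pfkfb3* at 1.61-fold (1.39 to 1.85), *Epas1* at 1.5-fold (1.25 to 1.80), *Slc2a1* at 1.39-fold (1.22 to 1.58), *Pdk1* at 1.34-fold (1.19 to 1.5) and *Bnip3* at 1.26-fold (1.17 to 1.35).

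On the lower side *Ndrg1* was 1.42-fold lower (1.28 to 1.57), *Slc2a3* 1.28-fold lower (1.0 to 1.66), *Aldoa* 1.27-fold lower (1.23 to 1.30) and *Egln1* 1.26-fold lower (1.17 to 1.35). *Slc16a3* held 75.5% of its pair in chondrocyte-like cells and 76.8% in MSC lineage cells, and *Ldha* was at 541 and 591 CPM. The exception in the wider list was *Cox4i2*, at 164 CPM against 19.3 CPM, 8.51-fold higher (7.92 to 9.16), with *Pdk4* from few UMIs at 3.84 against 1.89 CPM. *Col5a2*, *Fbn1*, *Twist2* and *Fap*, mesenchymal markers outside the gate, were at 74.8% of their MSC level in chondrocyte-like cells, and 1031 cells with 2 positive chondrocyte markers lay just outside the gate, 657 of them counted as MSC lineage. Chondrocyte-like cells with UMIs of both *Col10a1* and *Ibsp*, markers of hypertrophy, numbered 1040 and had *Slc2a1* at 24.5 CPM (20.3 to 29.3) against 16.7 CPM (14.7 to 19.0) in the other 3245, and *Epas1* at 13.7 CPM (10.6 to 17.4) against 8.63 CPM (7.18 to 10.3). Lower in them were *Eno1* at 214 CPM (201 to 227) against 256 CPM (248 to 264), *Pgk1* at 266 CPM (252 to 281) against 299.8 CPM (291 to 309) and *Pkm* at 472 CPM (453 to 492) against 526 CPM (515 to 538). The intervals of the other members overlapped, those of *Hif1a* among them. Their median depth was 3595 UMIs against 2900 UMIs.

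Muscle cells, gated by satellite cell and myoblast markers, had the highest summed level of the glycolytic enzymes of all classes, 6878 CPM at 3 dpi, and a wide swing between libraries. The 32 genes summed to 4591 CPM in 167 uninjured cells, 2242 CPM in 67 cells at 1 dpi, 7914 CPM in 323 cells at 3 dpi and 5567 CPM in 192 cells at 7 dpi. From uninjured to 1 dpi, 1 of 12 members was at least 2-fold higher against 11.4% of genes and 6 were 2-fold lower against 22.3%. From 1 to 3 dpi, 14 of 19 were 2-fold higher against 32.2% and 1 was lower against 11.2%, and from 3 to 7 dpi 0 were higher against 6.16% and 7 lower against 13.2%. The median log2 ratio was 1.49 for the members and 0.45 for all genes from 1 to 3 dpi.

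Individual enzymes followed this swing to different extents in these muscle cells, and *Pkm* differed little between uninjured muscle and 1 dpi. *Gapdh* was at 1998, 537, 2930 and 2609 CPM, *Eno1* at 140, 53.2, 509 and 177 CPM, and *Pgk1* at 208, 91.2, 653 and 313 CPM. *Pkm* was at 338, 301, 1012 and 474 CPM, and *Egln3*, a sensor known from myogenic differentiation, had 32.2 CPM at 3 dpi and at most 5.24 CPM otherwise. *Ndrg1* ran against them, at 50.9, 246, 63.6 and 41.0 CPM. The stress genes were at 39640, 70210, 6040 and 19300 CPM and the median depth was 6921, 5462, 15211 and 5036 UMIs, and the mesenchymal check markers stood at 9.51%, 18.5%, 7.45% and 14% of their MSC level. Low glycolytic levels at 1 dpi thus came with high stress, few cells and a different mix of muscle cells, described next. The part of these was not tested.

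The 3 dpi level was not that of differentiating cells alone. The 111 cells at 3 dpi and 85 at 7 dpi with a *Myog* UMI, the gene of committed myocytes, had a summed level of 8081 and 6983 CPM, at median depths of 17657 and 6226 UMIs. The 42 such cells of uninjured muscle, below the 50 asked of a class, had 6988 CPM, and those at 1 dpi were too few to describe. Cells with *Pax7*, the satellite cell gene, and no *Myog* UMI had 3001, 2228, 7635 and 4149 CPM over the 4 libraries, from 124, 63, 153 and 95 cells. In these *Pax7* cells *Gapdh* went from 1118 CPM in uninjured muscle to 544 CPM at 1 dpi and *Eno1* from 111 to 56.0 CPM. *Pgk1* went only from 91.2 to 88.0 CPM and *Pkm* from 310 to 307 CPM, with overlapping intervals. The *Myog* and *Pax7* groups had nearer sums at 3 dpi than at 7 dpi. A cell of low depth can lack a *Myog* UMI by chance, and the median depth of the *Pax7* group was 6053, 5524, 14121 and 4545 UMIs.

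Neutrophils, numbering 52, 516, 333 and 151 cells, carried a set of transporters of their own. *Slc16a3* was at 345, 538, 496 and 378 CPM, *Slc2a3* at 253, 308, 288 and 170 CPM, and *Gpi1* at 446, 676, 582 and 227 CPM. *Slc16a3* held at least 97.6% of its pair and *Slc2a3* between 70.1% and 89.4% of the glucose transporter pair. *Pfkfb4* was at 56.2, 92.4, 82.3 and 85.0 CPM, its highest of any class. At 7 dpi the 4 mesenchymal check markers stood at 47.4% of their MSC level in neutrophils and the monocyte and macrophage ones at 93.4% of theirs, and their part in the 7 dpi neutrophil values was not tested. In monocytes and macrophages, Schwann cells and endothelial cells the mesenchymal markers stood at 19.2%, 28.2% and 37.3% at 7 dpi and at most 15.4% before.

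**Figure D5:**
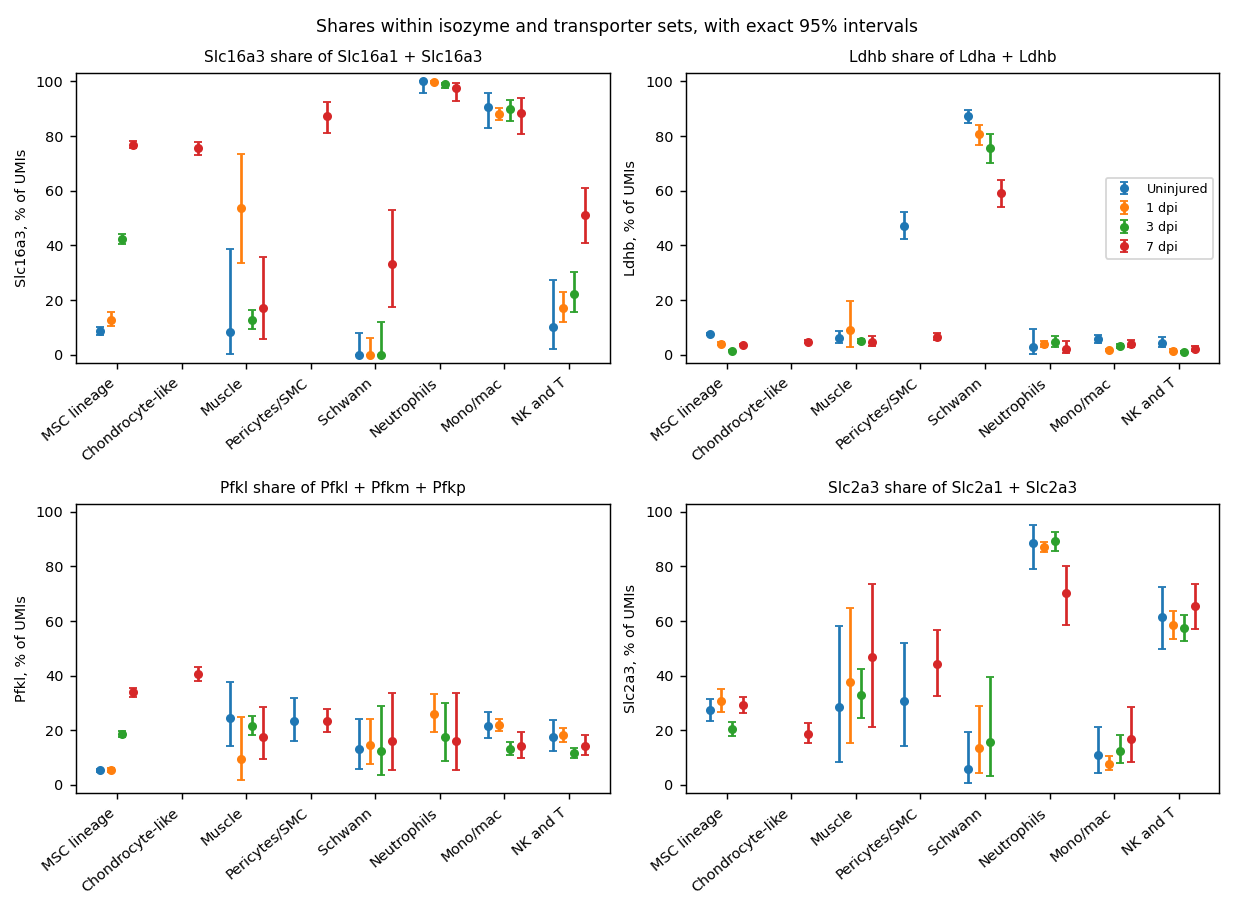
Share of *Slc16a3*, *Ldhb*, *Pfkl* and *Slc2a3* in the UMIs of their isozyme or transporter sets, in percent, by cell class and library (colour), with exact 95% intervals and at least 10 UMIs a set. *Ldhb* held 87.3% in uninjured Schwann cells, and *Slc16a3* held 76.8% in the MSC lineage at 7 dpi.

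Monocytes and macrophages had summed levels that stayed close together up to 3 dpi and were higher at 7 dpi. At 7 dpi the 32 genes summed to 4595 CPM in 464 cells. The mesenchymal check markers stood at 19.2% of their MSC level in these cells, and the part of such RNA was not tested. The 32 genes summed to 4114 CPM in 314 uninjured cells, 4007 CPM in 1722 cells at 1 dpi and 3752 CPM in 985 cells at 3 dpi, and the stress genes to 27540, 18960 and 17070 CPM, whose part was not tested. From uninjured to 1 dpi 2 of 24 members were at least 2-fold higher against 15.4% of 8285 genes, and 1 was 2-fold lower against 3.54%, with a median log2 ratio of 0.02 against 0.23 for all genes. *Pfkfb3* was at 22.8 CPM in uninjured cells, 56.1 CPM at 1 dpi and 30.8 CPM at 3 dpi, 2.47-fold higher at 1 dpi (1.90 to 3.26). *Slc16a1* was at 3.36 and 7.55 CPM from 9 and 102 UMIs, and *Ldhb*, the lower one, at 22.8 and 5.33 CPM from 61 and 72 UMIs. *Ndrg1* was 1.87-fold higher (1.42 to 2.51), *Slc16a3* 1.77-fold (1.41 to 2.24), *Slc2a1* 1.49-fold (1.13 to 2.0) and *Hif1a* 1.47-fold (1.32 to 1.64). On the other side *Aldoa* was 1.48-fold lower (1.38 to 1.59), *Gpi1* 1.31-fold (1.20 to 1.44), *Ldha* 1.28-fold (1.19 to 1.37), *Eno1* 1.23-fold (1.14 to 1.33) and *Tpi1* 1.09-fold, with an interval that includes 1 (0.981 to 1.21).

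From 1 to 3 dpi 0 of 25 members passed 2-fold in monocytes and macrophages, against 3.76% of 8701 genes higher and 3.64% lower, and the median log2 ratio was -0.13 against 0.02. The largest were *Pfkfb3* at 1.82-fold lower (1.53 to 2.18) and *Pfkp* at 1.47-fold higher (1.34 to 1.62). *Pkm* was 1.46-fold lower (1.39 to 1.53), *Hk2* 1.41-fold (1.24 to 1.6) and *Pgk1* 1.37-fold (1.26 to 1.5), and *Slc16a1* 1.47-fold lower with an interval that includes 1 (0.948 to 2.36). *Pfkfb4* was 1.29-fold higher (1.08 to 1.53), *Gpi1* 1.21-fold (1.12 to 1.30), *Ldha* 1.14-fold (1.08 to 1.21) and *Ndrg1* 1.15-fold (0.982 to 1.35). In the wider list *Hk3*, the hexokinase of myeloid cells, was at 16.8, 68.3 and 22.1 CPM, *Arnt*, the partner of the hypoxia factors, went from 20.9 to 43.0 CPM at 1 dpi, *Pdp1*, a pyruvate dehydrogenase phosphatase, had 8 UMIs and then 115, and *Slc2a6* from 33.8 to 16.4 CPM at 3 dpi.

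Schwann cells were the only class here with more UMIs of *Ldhb* than of *Ldha*. *Ldhb* was at 675, 464, 489 and 425 CPM in 240, 187, 159 and 178 cells, and held 87.3%, 80.6%, 75.7% and 59.1% of the pair. Its share was lowest at 7 dpi, when *Ldha* was at 294 CPM against 98.3 CPM in uninjured cells. The mesenchymal check markers stood at 28.2% of their MSC level in Schwann cells at 7 dpi and 11.5% when uninjured. The part of such RNA in the share was not tested. In *Ldhb* share pericytes and smooth muscle cells came next, with 47.2% in 122 uninjured cells and 6.61% in 420 cells at 7 dpi. These, however, lay mainly in different clusters (16 and 18), and the mesenchymal check markers stood at 4.72% and 47.5% of their MSC level in them. *Ndrg1* was at 1659, 2591, 2454 and 1209 CPM in Schwann cells, against at most 378 CPM in any other class, the endothelial cells at 3 dpi. They also had the highest *Slc16a1* (71.2 CPM at 3 dpi) and *Egln1* (122 CPM when uninjured), and 0 UMIs of *Slc16a3* before 7 dpi, which with 45 UMIs of the pair in uninjured cells allows a share of up to 7.87%.

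In the vascular classes *Epas1* was at 1437 CPM (1312 to 1571), 1125 CPM (1022 to 1235) and 342 CPM in endothelial cells at 1, 3 and 7 dpi, and at 512 and 238 CPM in pericytes and smooth muscle cells of uninjured and 7 dpi muscle. Endothelial cells numbered 66, 122 and 95. Endothelial cells at 1 dpi also had the highest *Slc2a1*, at 92.1 CPM from 31 UMIs (62.6 to 131), and *Hk1*, at 65.3 CPM from 22 UMIs (40.9 to 98.9). *Hk1* was nearly as high in endothelial cells at 3 dpi (63.8 CPM) and muscle cells at 1 dpi (63.4 CPM). *Ankrd37* was highest in uninjured pericytes and smooth muscle cells at 48.9 CPM (36.4 to 64.3), and *Pfkm* was too, at 42.2 CPM. *Adm* and *Hk2* were highest in the MSC lineage, and *Hif1a* at 308 CPM in the MSC lineage at 3 dpi.

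Among the lymphoid and dendritic classes *Pdk1* was highest in natural killer (NK) and T cells, at 66.7, 38.7, 23.3 and 34.6 CPM. *Slc2a3* was at 25.6, 42.9, 49.6 and 31.7 CPM there, second only to neutrophils. *Pfkp* was highest in dendritic cells, at 284 CPM at 1 dpi and 286 CPM at 3 dpi, which also had the highest *Pfkfb3* (66.8 CPM at 3 dpi). Granulocyte progenitors had the highest *Pfkl* (40.2 CPM), *Pgam1* (547 CPM) and *Car9* (9.27 CPM from 12 UMIs). B cells gave the lowest levels of *Gapdh* (360 CPM at 1 dpi), *Pkm* (81.7 CPM), *Eno1* (50.3 CPM) and *Pgk1* (48.7 CPM) of all classes.

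The other extremes were spread over classes. *Aldoa* was highest in uninjured muscle cells at 824 CPM, and *Tpi1*, *Gapdh*, *Pgk1*, *Eno1*, *Pkm* and *Egln3* in muscle cells at 3 dpi, while *Tpi1* (27.9 CPM) and *Hif1a* (45.6 CPM) were lowest in muscle cells at 1 dpi. *Ldha* (645 CPM) and *Bnip3* (104 CPM from 33 UMIs) were highest in neutrophils at 7 dpi, where markers of other cells were high. *Aldoc* did not exceed 6.55 CPM in any class. *Slc2a1* and *Pfkl* were lowest in the uninjured MSC lineage and *Gpi1* (79.5 CPM) and *Ldha* in uninjured Schwann cells. *Egln1* (20.1 CPM) was lowest in uninjured neutrophils, *Pdk1* (1.16 CPM) in neutrophils at 1 dpi, *Bnip3* (3.79 CPM) in NK and T cells, *Adm* (1.06 CPM) in dendritic cells and *Pfkfb3* (2.36 CPM) in Schwann cells. These levels rest on 5, 4, 19, 1 and 2 UMIs in that order, so their ranks are uncertain. B cells also had the lowest *Hk1* (8.70 CPM from 5 UMIs), *Hk2* (9.62 CPM from 9), *Pfkp* (19.97 CPM from 6) and *Ndrg1* (3.33 CPM from 1). Their *Aldoa* (112 CPM) and *Pgam1* (34.8 CPM) were the lowest too. The remaining members had 0 UMIs in at least 1 class of few UMIs, such as *Slc2a3* in endothelial cells at 3 dpi, which allows up to 9.41 CPM.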

How the data were processed

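Single-cell libraries were made by the authors from collagenase-digested tibial muscle on the 10x Genomics platform. The authors deposited UMI counts per gene and barcode and the submitters' processing notes name Cell Ranger 5.0.0, STAR, Seurat 3.1.1 and mm10. A down-sampling of reads is named, and whether it preceded these counts is not given in the sources used here. The libraries held 11722 to 23752 barcodes and 91146335 to 129007669 UMIs, and 30 to 95 barcodes were shared by a pair of libraries.

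Cells within 2 SD of the mean log10 UMIs and genes of their library with at most 10% mitochondrial UMIs were kept, and the 7.5% with the highest Scrublet score were removed. A cell belonged to a class when at least 3 of its markers (2 for keratinocytes) exceeded their share in the library and no other class reached that, with fewer than 3 for the MSC lineage except in chondrocyte-like cells. MSC lineage cells needed UMIs of 3 markers and no *Ptprc* UMI. They also needed fewer than 3 positive chondrocyte markers and at most 1 positive marker of any other class. UMIs were summed by class and library. Levels have exact Poisson intervals and ratios exact conditional binomial ones, at the 95% level. Only the ratio intervals were tested on simulated data, drawn as independent Poisson counts for each gene. A ratio needed 100 UMIs over both groups, and the text names up to 5 members in each direction with 100 UMIs in the group of higher level and 10 in the other, and elsewhere the highest and lowest classes; further genes past 2-fold were named after their values were seen. The values of 1 wider-list gene are not reported here. Each group was 1 library, so no test was run. The members and lists were chosen with earlier results of these data known, and the *Myog* and within-cluster splits and the muscle genes named after seeing the data. UMIs from the 3′ end do not scale with gene length. Reads of *Eno1* and its copy *Eno1b* (1389 UMIs) may be split. Other members overlap mostly with genes on the opposite strand, among them *Fam57b* (*Aldoa*), *Iffo1* (*Gapdh*) and *Spsb2* (*Tpi1*). On the same strand *Gm26513* overlaps *Pfkm*, and *Gm43581* and *Gm43585* overlap *Slc16a1*, so the counts of these 2 members may hold some of their reads. How reads of overlapping genes were assigned was not tested. Positions follow GRCm38. Python 3.11.15, scanpy 1.11.5, scipy 1.17.1, numpy 2.4.6, pandas 2.3.3, igraph 0.11.9 and matplotlib 3.10.9 were used. The alternatives tried changed the filters, gates, scaling, UMI minimum and fold.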

Additional observations from a re-analysis of the deposited data

How the results depend on the processing

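With ratios centred on the median of all genes 1 member passed 2-fold in MSC lineage cells from uninjured to 1 dpi instead of 2. A limit of 1.5-fold gave 9 members at this step, where 29.8% of all genes passed, and 13 from 1 to 3 dpi (25.1% of genes). It gave 5 and 3 in monocytes and macrophages for their 2 steps (40.8% and 21.4%) and 5 for chondrocyte-like cells (22.0%). In monocytes and macrophages a minimum of 20 UMIs gave 5 members instead of 3 for the step to 1 dpi. For the step to 3 dpi 1 member passed instead of 0 under each of a stricter gate, Leiden clusters, mean CPM per cell, totals without mitochondrial and ribosomal genes, totals without the 50 highest genes and the minimum of 20 UMIs. Limits of 2 SD on linear counts left 1 member instead of 2 for chondrocyte-like cells, as did leaving out MSC lineage cells of cluster 10, or of clusters 18 and 26, both chosen after seeing the data. Shares of all genes are given only for the 1.5-fold limit, so the other counts are not set against all genes. The cause of these changes was not tested. No other alternative moved a count of members past 2-fold by over 1.5 times, and no ratio past 2-fold changed direction. Of 156 member ratios, between 145 (centring) and 155 (no doublets removed) kept their direction under the alternatives of filter, gate and scaling, and those that turned included *Adm* from 1 to 3 dpi. The median log2 ratio of all genes was 0.16 and 0.23 for the steps to 1 dpi in MSC lineage cells and in monocytes and macrophages, and -0.14 for chondrocyte-like cells. No paired analysis was possible because each time point has a single library. Depth limits members such as *Car9*, *Egln3* and *Aldoc*, which stayed below the UMI minimum in most comparisons.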
